A study of Mus musculus with 36 samples.

Results

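The Th2 core genes are the 7 genes Gata3, Stat6, Il4ra, Il1rl1, Il4, Il5 and Il13, taken by their symbols from a table of 56748 genes, and they were followed in mouse CD4 T cells through RNA-seq libraries of 12 groups. The groups crossed 2 mouse lines, 2 genotypes and 3 conditions. In the HP1a line the gene of heterochromatin protein 1α was deleted in all tissues by crossing a floxed allele with CMV-cre (KO), against wild-type littermates (WT). In the HP1g line a floxed gene of heterochromatin protein 1γ was removed by Cd4-cre, which acts in cells of the T lineage (KO), and the littermates labelled WT carried the floxed allele without Cre. Both lines were on a mixed 129/Sv and C57BL/6 background, and the mice were 6 to 12 weeks old and matched for sex. The study states that male mice were used for its sequencing work.

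Naive cells were CD62L+ CD44low CD4 T cells of the spleen. For the other conditions the naive cells of 1 genotype were injected into lethally irradiated B6 hosts that received B6 and semi-allogeneic B6D2F1 bone marrow depleted of T and NK cells. They went in alone (Tconv) or with regulatory T cells that had been expanded ex vivo from Foxp3-Thy1.1 B6 mice (Tconv with Treg). The study gave Treg at various ratios. It states that at the ratio of the HP1g experiment the wild-type response was not effectively repressed. Where the 2 lines are compared, line and any difference in the Treg ratio cannot be told apart. The donor cells were sorted from the spleen 3 weeks later as CD4+ cells with the Vβ6 T cell receptor chain, and the sort left out the Thy1.1+ Treg. The Treg and the hosts were wild type in every group. Each group held 3 libraries, apart from HP1g KO Tconv with Treg, where replicate 3 was left out as in the methods of the study and 2 libraries remained. The labels do not say that the libraries of a group came from separate mice, so the p-values measure the spread between these libraries, which may be technical. The 35 libraries held 37029519 to 63042245 estimated counts (median 46844690), so that 3 counts, taken here as the floor, correspond to 0.0446 to 0.0816 CPM, the estimated counts scaled to a common library size. The scaling used TMM normalisation, and values that follow each other are in replicate order.

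As background, naive CD4 T cells become T helper 2 (Th2) cells when interleukin 4 binds its receptor, whose α chain is encoded by Il4ra. The receptor activates the transcription factor STAT6, which raises Gata3, and GATA3 in turn opens the locus of the 3 cytokine genes Il4, Il5 and Il13. GATA3 is also needed for the development of every CD4 T cell, so that a naive cell already holds some. Il1rl1 encodes ST2, the receptor of interleukin 33, which is found on Th2 cells, on a subset of Treg and on mast cells.

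The sorted cells expressed the markers of CD4 T cells in every library, with a summed level of Cd3e, Cd4, Trbc1, Trbc2 and Cd5 of 3340 to 6410 CPM. Trbv19, which encodes Vβ6, stood at 310 to 579 CPM in the 23 grafted libraries against 35.8 to 69.6 CPM in the 12 naive ones. The gene targeted in the HP1a line, Cbx5, lay at 18.6 to 61.9 CPM in WT and 9.25 to 19.7 CPM in KO libraries. Cbx3, targeted in the HP1g line, lay at 79.5 to 200 and 59.4 to 80.8 CPM. Neither overlapped between KO and WT within a condition. Among the grafted libraries, replicate 3 of HP1a WT Tconv with Treg stood apart, with the lowest median correlation with its own group (0.934, where the median over all libraries was 0.98). Among the naive libraries, replicate 2 of HP1g WT had the lowest such correlation (0.971) and the lowest TMM factor of the 35 libraries (0.8446). Summed erythroid markers reached 2230 to 4180 CPM in replicate 1 of each of the 4 grafted HP1g groups and 49 to 206 CPM in their other replicates, and the part of this in the results was not tested. In bulk RNA, more cells that express a gene and more RNA of it per cell cannot be told apart.

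Il4, Il13 and Il5 lie together on chromosome 11 of GRCm39 and each has 4 exons in its canonical transcript. Il4 (ENSMUSG00000000869, 53493809 to 53509496, minus strand) is followed after 12.7 kb by Il13 (ENSMUSG00000020383, 53522151 to 53525529, minus strand), then by the DNA repair gene Rad50, and 13.5 kb beyond Rad50 by Il5 (ENSMUSG00000036117, 53611621 to 53615933, plus strand). Il1rl1 (ENSMUSG00000026069) is on the plus strand of chromosome 1 at 40468730 to 40504575. Gata3 (ENSMUSG00000015619) is on the minus strand of chromosome 2 at 9861889 to 9894845. Il4ra (ENSMUSG00000030748) is on the plus strand of chromosome 7 at 125151079 to 125182844 and Stat6 (ENSMUSG00000002147) on the plus strand of chromosome 10 at 127477821 to 127496862. The library kit does not mark the strand, so reads of overlapping genes cannot be told apart. Il4 overlaps Kif3a, Stat6 overlaps Nab2, Il5 overlaps Gm12216 and Gm12214, Il4ra overlaps Gm44876, and Gata3 overlaps 4 non-coding genes, Gata3os and Gata3un among them.

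The 250 bases before the transcription start are shown for the 4 members that were close to 0 in naive cells and present in grafted cells. The sequences are those of the RefSeq promoter table, in which all 7 members had an entry, and each matched GRCm39 exactly once. They are written 5′ to 3′ on the strand of the gene, and capitals mark GATA on either strand (TATC where it lies on the other strand) and TTC followed by any 4 bases and GAA, the spaced palindrome that STAT6 binds. The window of Il4 is chr11:53509493-53509742, of Il13 chr11:53525530-53525779, of Il5 chr11:53611371-53611620 and of Il1rl1 chr1:40468480-40468729. The last 4 bases of the Il4 window belong to an exon in the GENCODE annotation, in which this gene starts slightly earlier.
Il4: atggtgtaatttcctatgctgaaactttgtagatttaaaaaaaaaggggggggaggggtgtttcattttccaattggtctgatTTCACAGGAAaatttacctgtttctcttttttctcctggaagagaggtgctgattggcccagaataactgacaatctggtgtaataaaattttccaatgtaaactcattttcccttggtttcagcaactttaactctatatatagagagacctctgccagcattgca
Il13: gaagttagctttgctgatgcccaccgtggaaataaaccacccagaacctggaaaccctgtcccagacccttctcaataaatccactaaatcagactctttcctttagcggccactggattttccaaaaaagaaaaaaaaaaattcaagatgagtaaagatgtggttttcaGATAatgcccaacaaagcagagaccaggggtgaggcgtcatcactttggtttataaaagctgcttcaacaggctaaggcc
Il5: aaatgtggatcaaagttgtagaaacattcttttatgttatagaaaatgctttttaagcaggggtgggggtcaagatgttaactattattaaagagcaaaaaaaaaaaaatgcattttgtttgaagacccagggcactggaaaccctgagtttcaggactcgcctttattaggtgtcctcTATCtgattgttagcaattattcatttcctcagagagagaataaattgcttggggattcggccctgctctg
Il1rl1: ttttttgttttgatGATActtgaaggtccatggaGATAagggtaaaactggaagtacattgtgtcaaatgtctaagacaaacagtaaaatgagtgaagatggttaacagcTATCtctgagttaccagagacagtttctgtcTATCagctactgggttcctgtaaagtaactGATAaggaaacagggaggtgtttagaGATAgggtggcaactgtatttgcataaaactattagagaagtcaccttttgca
RefSeq gives a second window for Il4, at a start inside the gene, with 3 GATA and no palindrome. It also gives a second window for Il1rl1, at a start inside that gene, with 2 GATA and no palindrome. The Il4 window shown holds 1 such palindrome and no GATA, the Il13 and Il5 windows hold 1 GATA each, and the Il1rl1 window, which is the one at the first annotated start of that gene, holds 6 GATA. Of the 32851 promoter windows of the same length, 5.85% hold the palindrome, 53.6% hold a GATA and 0.338% hold at least 6. GGAAA, the core that NFAT binds, occurs 5 times in the Il4 window, once overlapping the palindrome, and 0.39% of all windows hold at least 5, while 55.6% hold at least 1. These are matches of letters and were not tested as binding sites.

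Before transfer, the receptor and signalling genes were the members that naive cells expressed, and the cytokine genes and Il1rl1 were at or close to the floor. Per kilobase of canonical transcript, which allows levels of different genes to be compared, naive HP1a WT cells held 87.2 ± 19.3 CPM of Il4ra (SD, n = 3), 82.3 ± 1.27 of Stat6 and 29.4 ± 3.08 of Gata3. Il1rl1 stood at 0.0165 ± 0.00773 CPM per kilobase in the same cells. Over all 12 naive libraries Il4 had at most 2 counts, Il5 at most 5 and Il1rl1 at most 9, and Il13 was 0 in each of the 12, which allows up to 0.0446 to 0.0786 CPM at the floor of 3 counts.

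In WT Tconv recovered after 3 weeks, Gata3, Il4 and Il1rl1 rose in both lines, and Il5 and Il13 rose in the HP1g line. Il4ra fell in the HP1a line, and Stat6 was called in neither. Of the 5 members tested in the HP1a line 4 were called, and of the 7 tested in the HP1g line 5, where 23.1% and 23.5% of all genes tested were called. Il4 and Il1rl1, and in the HP1g line Il5 and Il13, passed the filter on low counts only through Tconv, where they were high. Being tested nearly fixed their calls, so these counts are no support when set against the shares. A gene was called here and below where the two-sided quasi-likelihood test of edgeR gave an adjusted p below 0.05 and the log2 fold change exceeded 1 in size. Of all 7 members, 6 did not overlap between naive and Tconv libraries in the HP1a line and 5 in the HP1g line, against 57.8% and 52% of all genes tested. The 6 include Il5, which was not tested in the HP1a line. For the genes that passed the filter only through Tconv, being tested also nearly fixed the lack of overlap, so these counts are no support either. The titles do not say whether naive and grafted libraries were made together, and the naive cells were not sorted for Vβ6. Any batch, the sort and the condition cannot be told apart here.

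Gata3, the master regulator of Th2 cells, measured 106, 86.2 and 94.8 CPM in naive HP1a WT libraries and 354, 613 and 405 CPM in Tconv. In the HP1g line its values were 106, 129 and 117 CPM in naive WT cells and 565, 438 and 284 CPM in Tconv. Naive and grafted libraries did not overlap in either line, and the log2 fold change was 2.27 ± 0.20 in the HP1a (SE, adjusted p = 6.63e-05, edgeR) and 1.87 ± 0.26 in the HP1g line (adjusted p = 0.00119).

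Il1rl1 went from at most 0.134 CPM in naive WT cells to 58.3, 65.2 and 32.3 CPM in HP1a WT Tconv, and to 83.4, 152 and 55.2 CPM in HP1g WT Tconv. Its summed count in Tconv, over that in naive cells and relative to library size, was 583-fold in the HP1a line (95% interval 359 to 1020) and 2410-fold in the HP1g line (1030 to 7410), where the exact intervals cover counting error only. Il4 had 194, 780 and 158 counts in HP1a WT Tconv (5.28, 16.4 and 4.24 CPM) and 898, 903 and 453 counts in HP1g WT Tconv (18, 20.4 and 9.41 CPM). Against 2 counts in the naive libraries of either line, this was 821-fold (227 to 6790) and 1000-fold (277 to 8280). For both genes each WT Tconv library lay far above each naive WT library.

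Il5, the growth factor of eosinophils, and Il13, a cytokine that acts on epithelia and mucus, remained low in comparison with Il4. Il5 had 14, 9 and 3 counts in HP1a WT Tconv and 19, 61 and 79 counts in HP1g WT Tconv. Il13 had 0, 2 and 0 counts in HP1a WT and 24, 22 and 18 counts in HP1g WT Tconv. The HP1g counts were 141-fold above naive cells for Il5 (25 to 5620) and at least 19-fold for Il13, taking the floor of 3 counts over the naive group. Per kilobase, HP1g WT Tconv held 27 ± 9.81 CPM of Il4, 0.737 ± 0.432 of Il5 and 0.374 ± 0.0558 of Il13 (SD, n = 3), so Il4 was the most abundant of the 3 cytokine transcripts. In the HP1a line Il5 and Il13 did not pass the filter on low counts, and DESeq2, which tested Il5, called it higher (adjusted p = 0.0308), as it called 20.5% of all genes in either direction.

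Il4ra measured 580, 399 and 407 CPM in naive HP1a WT cells and 146, 196 and 118 CPM in Tconv, a log2 fold change of -1.58 ± 0.21 (adjusted p = 0.000654). In the HP1g line the values were 524, 268 and 486 CPM against 347, 250 and 152 CPM, the groups overlapped, and the log2 fold change of -0.77 ± 0.35 was not called (adjusted p = 0.132). The overlap came from the 268 CPM of naive replicate 2, the library with the lowest TMM factor. Stat6 stayed between 263 and 410 CPM in all naive and Tconv WT libraries of the 2 lines. The plot of levels by group shows these steps beside the groups with Treg.

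**Figure D1:**
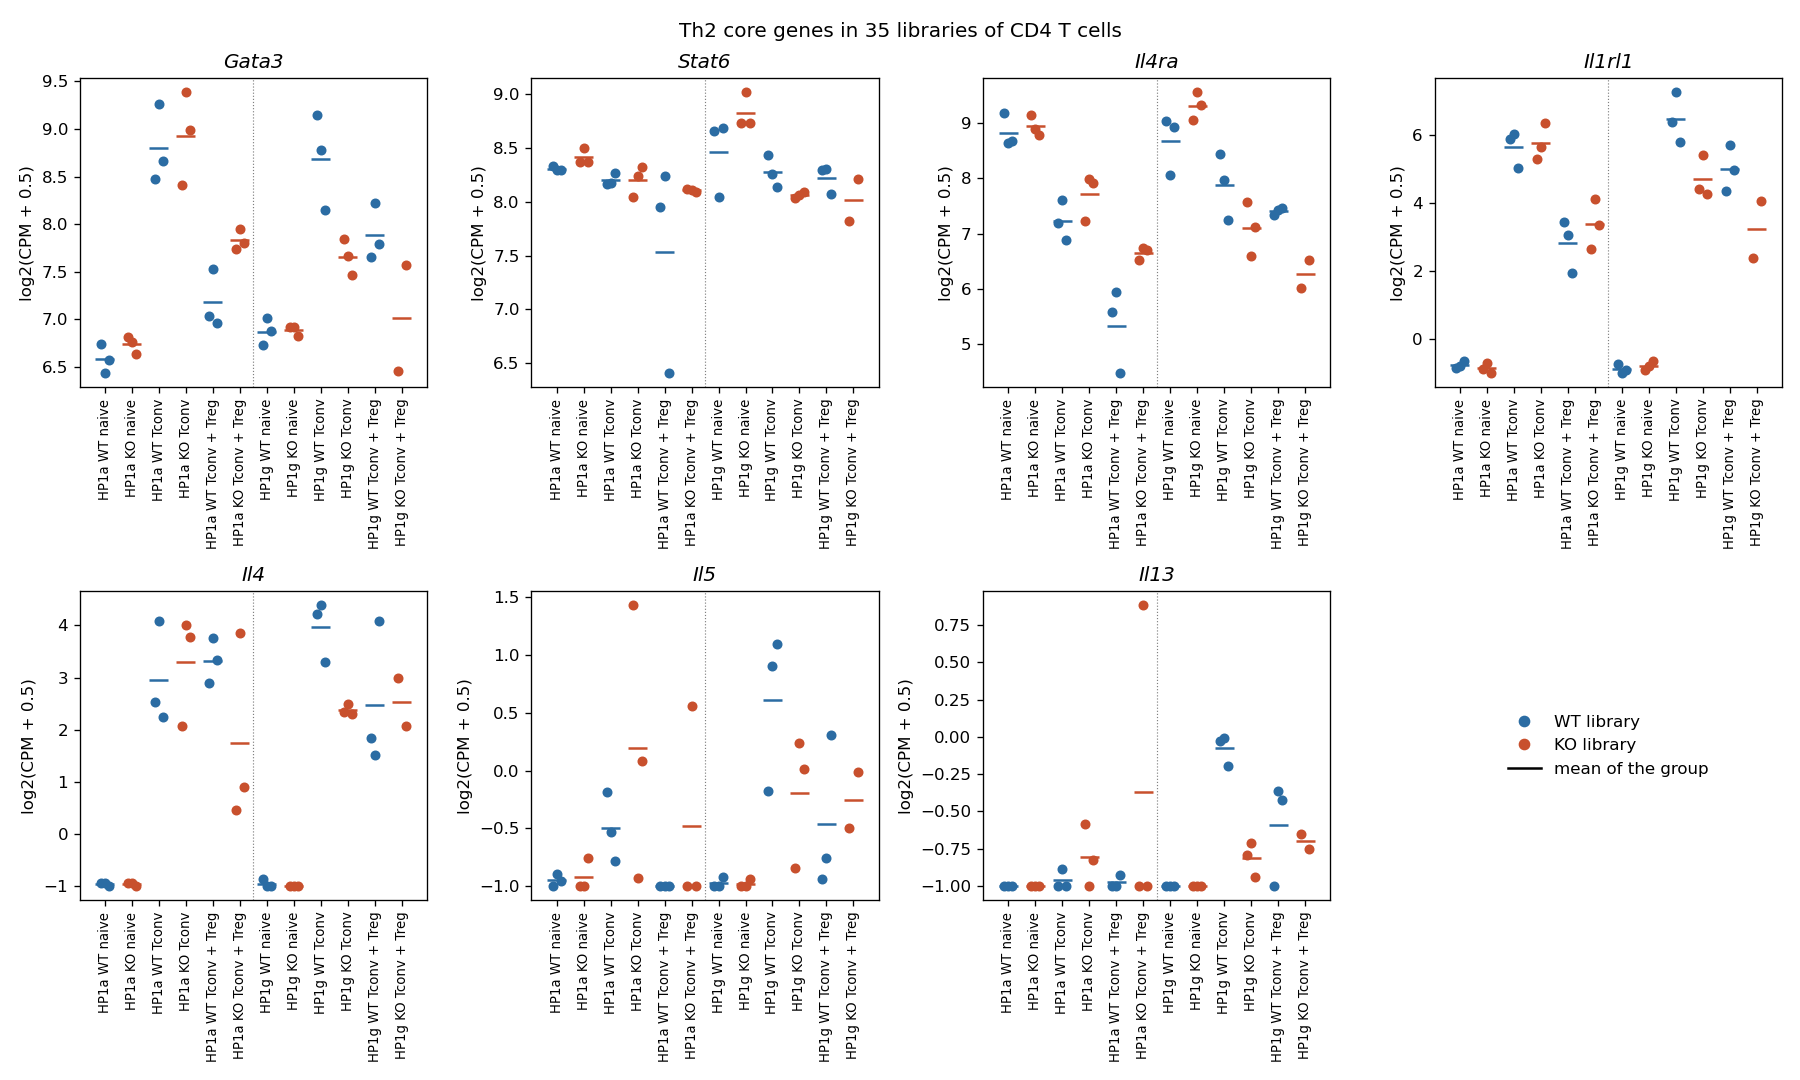
Level of each Th2 core gene as log2(CPM + 0.5) in each of 35 libraries (points) with the mean of the group (lines), WT in blue and KO in orange, HP1a groups left and HP1g groups right of the dotted line; each panel has its own scale. Il1rl1, Il4 and Gata3 stood higher in the group means of Tconv than of naive cells in every line and genotype, the means of Il4ra stood lower, and 1 library of HP1a WT Tconv with Treg was low for Stat6.

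When Treg were co-injected, Gata3, Il4ra and Il1rl1 fell in HP1a WT Tconv, and no member was called in the other 3 sets of cells. In HP1a WT cells 3 of the 5 members tested were called lower, where 2.43% of all genes were called lower (5.96% in either direction), and the median log2 fold change was -1.62 over the members tested and 0.03 over all genes. The counts of calls in HP1a KO, HP1g WT and HP1g KO cells were 0 of 6, 0 of 7 and 0 of 6, against 0.44%, 0.0126% and 0% of all genes. At an unadjusted p under 0.05 there were 3, 2 and 1 members in these 3 comparisons. Of all genes tested, 2551 of 16133, 1095 of 15903 and 1294 of 16991 had such a p. DESeq2 called 3, 0 and 0 members, with 2.67%, 0.332% and 1.61% of all genes.

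Il1rl1 had the largest difference of the 3. With Treg it measured 10.4, 7.9 and 3.32 CPM in HP1a WT cells, all below the 32.3 to 65.2 CPM without Treg (log2 fold change -2.83 ± 0.45, adjusted p = 0.0117). In HP1a KO cells it was 5.81, 16.8 and 9.78 CPM with and 38.9, 49.5 and 80.7 CPM without Treg, which also did not overlap (-2.37 ± 0.45, adjusted p = 0.0882). In HP1g WT cells it was 19.9, 51.6 and 30.7 against 83.4, 152 and 55.2 CPM (-1.51 ± 0.49, adjusted p = 0.694), and in HP1g KO cells 4.74 and 16.2 against 20.9, 41.9 and 18.7 CPM (-1.36 ± 0.62, adjusted p = 0.701). With the left-out library included, the last value turned to 0.17 (adjusted p = 0.957). In the libraries used, those with Treg lay below those without in each of the 4 sets, where 34.4%, 22.6%, 13.4% and 24.3% of all genes had groups that did not overlap.

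Gata3 in HP1a WT cells was 131, 185 and 124 CPM with Treg, below the 354 to 613 CPM without (log2 fold change -1.62 ± 0.26, adjusted p = 0.0117), yet above the 86.2 to 106 CPM of naive cells. In HP1a KO cells it was 214, 246 and 223 CPM with Treg against 340, 668 and 508 CPM without (-1.14 ± 0.23, adjusted p = 0.0912). HP1g WT cells had 201, 299 and 222 CPM with Treg and HP1g KO cells 87.8 and 189 CPM, and both groups overlapped with their counterpart without Treg (-0.84 ± 0.27 and -0.53 ± 0.34, adjusted p = 0.694 and 0.766).

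Il4ra in HP1a WT cells was 47.5, 60.8 and 21.8 CPM with Treg, and no library reached the 118 to 196 CPM of Tconv alone (log2 fold change -1.81 ± 0.37, adjusted p = 0.0284). HP1a KO cells had 91.5, 107 and 104 CPM with Treg against 150, 254 and 242 CPM without (-1.08 ± 0.20, adjusted p = 0.0741). The difference was smaller in HP1g WT cells (162, 171 and 177 CPM with Treg, -0.56 ± 0.28, adjusted p = 0.758), and HP1g KO cells had 64.4 and 91.6 CPM (-0.84 ± 0.33, adjusted p = 0.641). The difference between the Treg effects of HP1a WT and HP1g WT cells was -1.27 ± 0.49 for Il4ra (adjusted p = 0.229), -0.80 ± 0.39 for Gata3 (0.347) and -1.33 ± 0.67 for Il1rl1 (0.365), and none of the 7 members was called (1.56% of all genes). At an unadjusted p under 0.05 there was 1 of the 7 members, where 2684 of 17127 genes tested had such a p. DESeq2 called 0 members, with 4.54% of all genes. A difference between the 2 lines was thus not shown for these genes, which does not show that they were alike.

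Of the cytokine genes, Il4 alone passed the filter on low counts in HP1a WT cells. It was 6.94, 13 and 9.56 CPM with Treg and 5.28, 16.4 and 4.24 CPM without, with complete overlap (log2 fold change 0.20 ± 0.53, adjusted p = 0.855). Il5 had 0 counts in each of the 3 libraries with Treg against 14, 9 and 3 counts without, and DESeq2 did not call it (adjusted p = 0.0532). Il13 had at most 2 counts in any of these 6 libraries. Stat6 was 247, 302 and 84.6 CPM with Treg, of which the last belongs to the library that stood apart, and 286 to 308 CPM without (-0.47 ± 0.40, adjusted p = 0.529). Without that library the log2 fold changes of Gata3, Il4ra and Il1rl1 were -1.53, -1.50 and -2.50, and all 3 remained called.

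**Figure D2:**
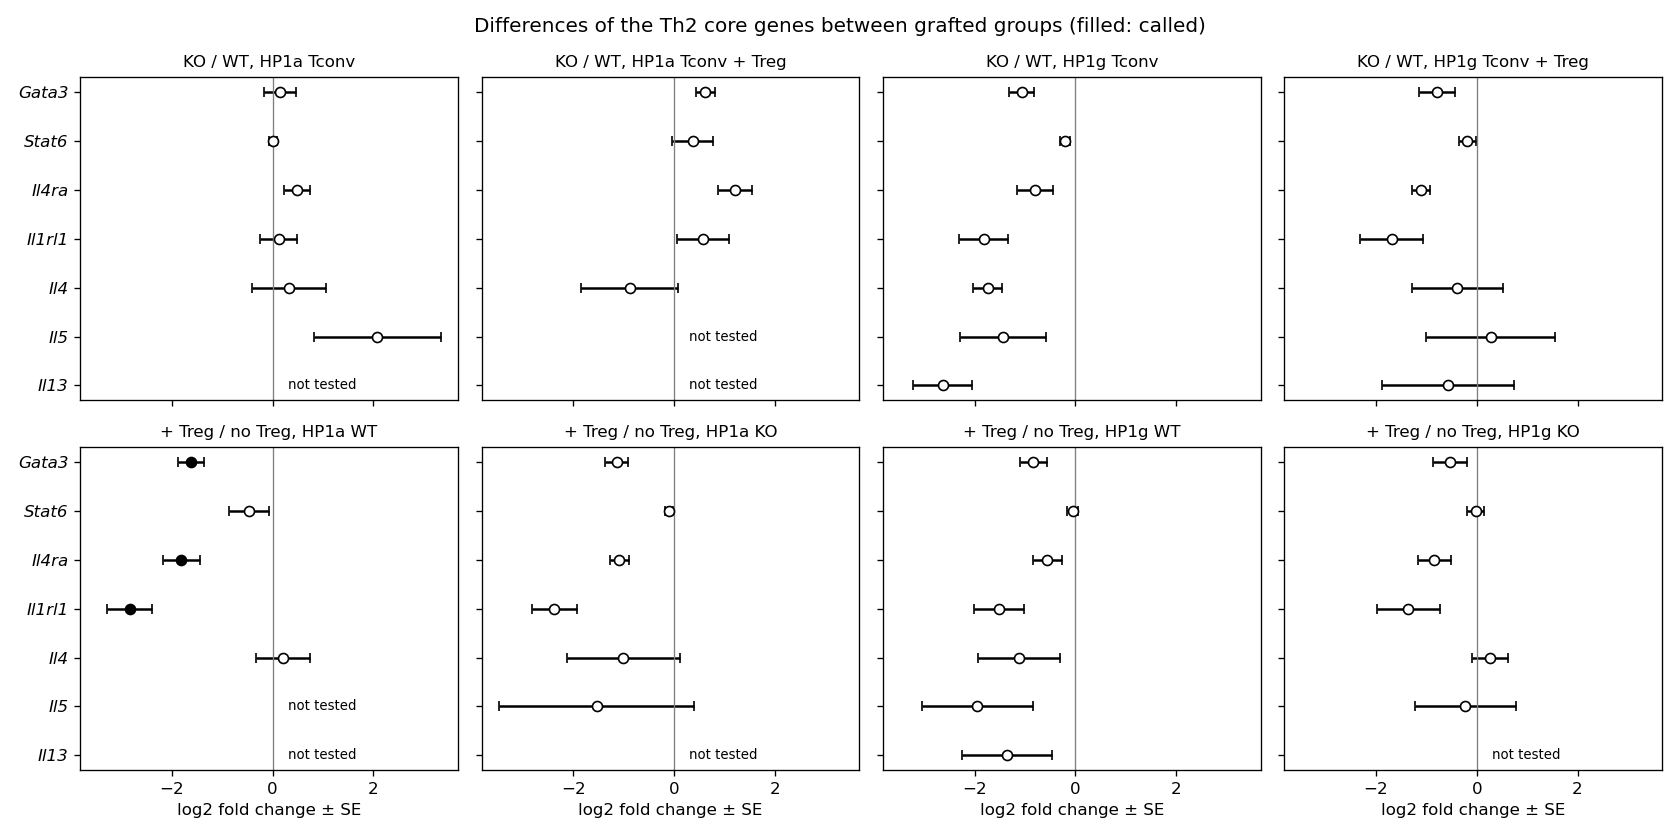
Log2 fold change with its standard error for each Th2 core gene, in the top row KO against WT and in the bottom row Tconv with Treg against Tconv alone, with filled points for genes called by edgeR. The 3 filled points are Gata3, Il4ra and Il1rl1 in HP1a WT cells, and in the panel of HP1g Tconv all 7 points lie left of 0. In that panel Il13 passed the filter on low counts only through WT libraries.

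The calls in HP1a WT cells rested on few libraries. Leaving out replicate 1, 2 or 3 of HP1a WT Tconv, or replicate 1 of HP1a WT Tconv with Treg, left 1 of the 3 calls in each case, with adjusted p up to 0.0533 for Gata3, 0.112 for Il4ra and 0.0631 for Il1rl1, and log2 fold changes from -1.79 to -1.37, -1.97 to -1.61 and -3.20 to -2.65. In the same comparison the summed level of 10 Treg markers (Foxp3, Il2ra and Ctla4 among them) was 1010 to 1240 CPM with Treg and 554 to 782 CPM without, and 3 of the 10 were called higher and 1 lower. The summed level of 10 myeloid markers was 23.9 to 67.5 against 6.74 to 7.86 CPM, with 2 of the 5 tested called higher. Of 8 B cell markers, 5 were tested and 1 was called higher. The part of these cells in the results was not tested.

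KO and WT cells were compared within each line and condition to ask whether the loss of either protein moved the Th2 genes. By the edgeR test described above, no member was called in any of the 6 comparisons. A fit with a replicate block, run as an alternative, called 3 members in HP1g Tconv, where the replicate numbers did not meet the criterion for pairs. In the HP1a line the counts were 0 of 3 members tested in naive cells, 0 of 6 in Tconv and 0 of 5 in Tconv with Treg (0%, 0.103% and 0.123% of all genes called), and at an unadjusted p under 0.05 there were 0, 0 and 2. In the HP1g line they were 0 of 3, 0 of 7 and 0 of 7 (0.00669%, 0.0437% and 0% of all genes), with 0, 4 and 2 at an unadjusted p under 0.05. The 4 include Il13, which passed the filter on low counts only through WT. Of all genes tested, such a p was found for 291 of 15549, 1324 of 15521 and 1975 of 16256 in the HP1a line. In the HP1g line it was found for 863 of 14939, 1349 of 16015 and 2028 of 17177. DESeq2 called 0, 0 and 1 members in the HP1a line (0.0478%, 1.16% and 3.84% of all genes) and 0, 2 and 2 in the HP1g line (0.208%, 1.43% and 3.56%).

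In HP1g Tconv without Treg all 7 members had lower fitted levels in KO than in WT cells, with a median log2 fold change of -1.44 over the members and 0.02 over all genes tested. Il13 passed the filter on low counts only through WT, where it was high. Being tested thus nearly fixed its direction, and it adds no support to the 7, to the median or to the count without overlap below. Gata3 was 230, 203 and 176 CPM in KO and 565, 438 and 284 CPM in WT libraries (log2 fold change -1.06 ± 0.25, adjusted p = 0.268 in edgeR). Il4 was 4.57, 5.15 and 4.4 CPM in KO and 18, 20.4 and 9.41 CPM in WT libraries (-1.74 ± 0.29, adjusted p = 0.143). Il1rl1 was 20.9, 41.9 and 18.7 against 83.4, 152 and 55.2 CPM (-1.82 ± 0.48, adjusted p = 0.354), and Il13 had 4, 5 and 1 counts against 24, 22 and 18 counts (-2.63 ± 0.58, adjusted p = 0.244). These 4 genes and Stat6 (263 to 273 against 281 to 346 CPM, -0.20 ± 0.10, adjusted p = 0.696) did not overlap between KO and WT, 5 of 7 members, where 13.9% of all genes did not overlap.

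Il5 and Il4ra overlapped between the genotypes. Il5 had 3, 31 and 23 counts in KO and 19, 61 and 79 counts in WT Tconv (log2 fold change -1.44 ± 0.86, adjusted p = 0.752). Il4ra was 190, 95.6 and 138 CPM in KO and 347, 250 and 152 CPM in WT libraries (-0.80 ± 0.36, adjusted p = 0.657). DESeq2 called Gata3 (adjusted p = 0.00154) and Il4 (1.34e-06), and edgeR without a filter on low counts called Il4 (0.0102).

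Markers of other cells that make interleukin 4 were measured in the same libraries. Of the 7 markers of mast cells and basophils, Mcpt8 measured 1.57, 0.339 and 0 CPM and Prss34 1.59, 0.248 and 0 CPM in HP1g WT Tconv, and both were 0 in replicates 1 and 2 of HP1g KO Tconv and 0.577 and 1.42 CPM in its replicate 3. The mast cell and basophil markers summed to 3.45 to 12.5 CPM in WT and 3.09 to 6.04 CPM in KO libraries, mostly from Hdc, and their part in the difference was not tested. Replicate 3 of HP1g WT Tconv, with 9.41 CPM of Il4, held 0.249 CPM of Cpa3 and 3.2 CPM of Hdc, and the other 5 of these markers were at 0. The 4 markers of group 2 innate lymphoid cells, of which Rxrg was 0 throughout, summed to 1.75, 7.02 and 2.62 CPM in WT and 0.941, 0.943 and 0.6 CPM in KO libraries, which did not overlap, and none of the 3 tested was called. The 3 markers of NKT cells summed to 9.85, 7.09 and 6.73 CPM in WT and 13.6, 2.74 and 6.71 CPM in KO libraries. Markers of eosinophils summed to at most 1.35 CPM in any grafted library. The part of these cells was not tested.

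**Figure D3:**
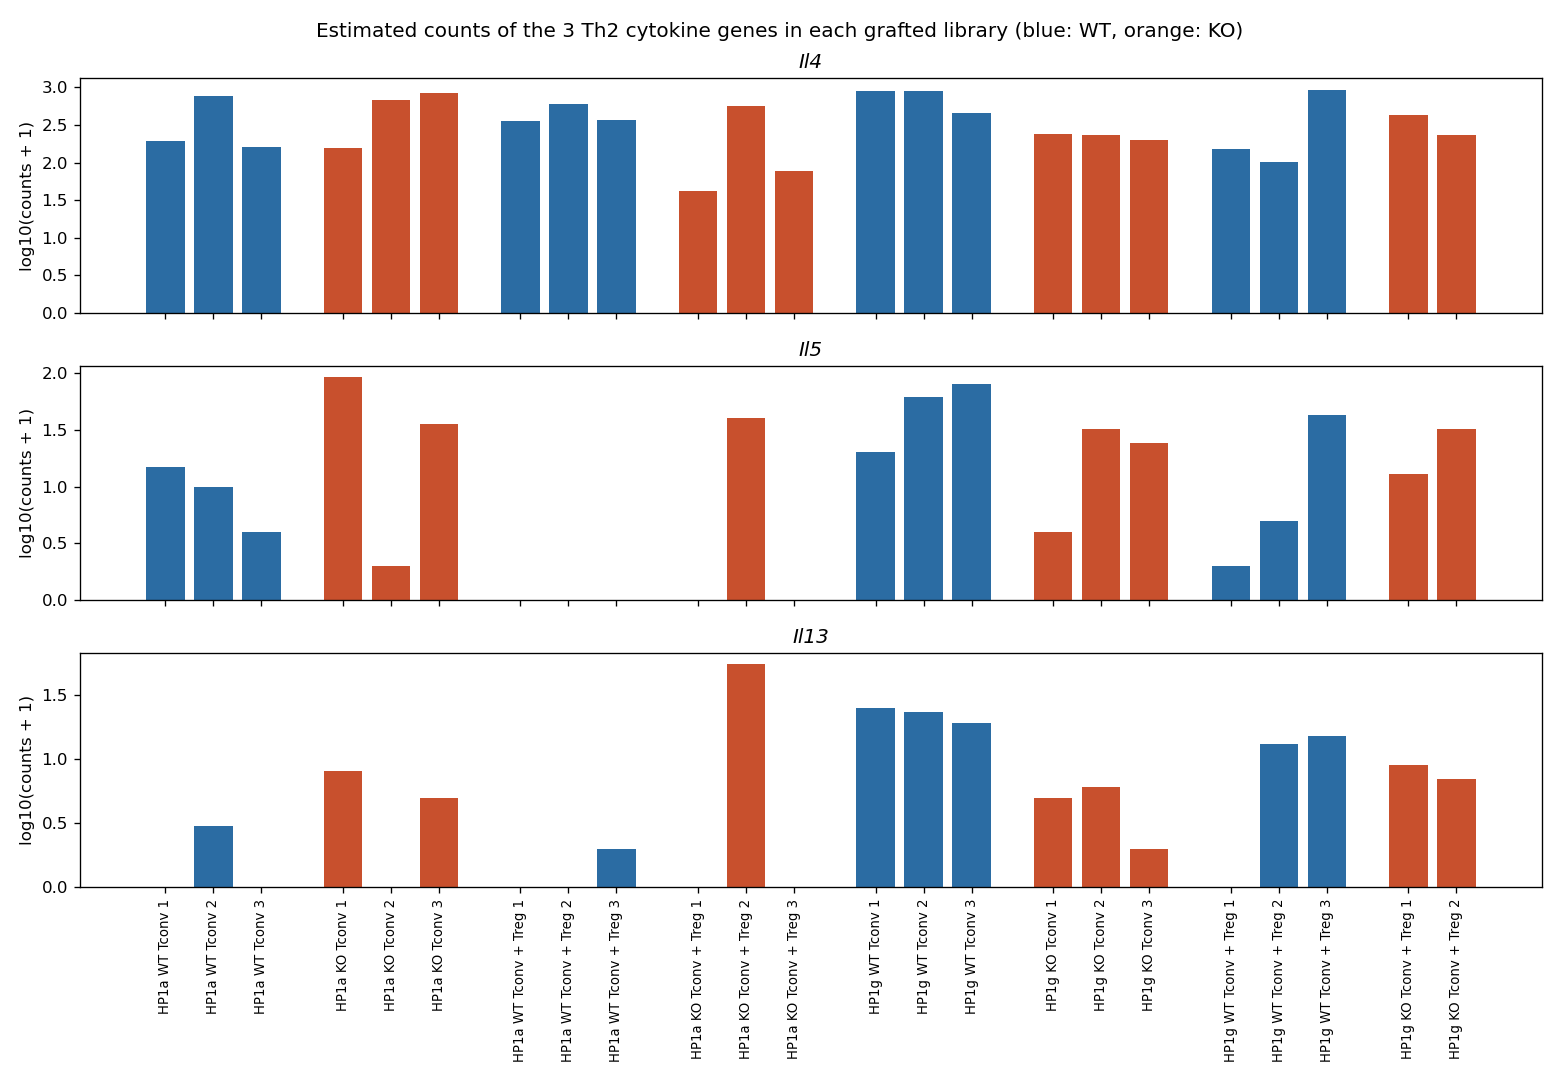
Estimated counts of Il4, Il5 and Il13 as log10(counts + 1) in each of the 23 grafted libraries, WT in blue and KO in orange, with the replicate number after the group. Il4 was present in every library, with 41 to 936 counts, while Il5 and Il13 were at 0 in several, and replicate 2 of HP1a KO Tconv with Treg carried 54 counts of Il13 beside 2 libraries at 0.

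With Treg, Il4ra lay at opposite sides of WT in the 2 lines. In HP1g cells it was 64.4 and 91.6 CPM in KO against 162, 171 and 177 CPM in WT libraries (log2 fold change -1.11 ± 0.18, adjusted p = 0.169 in edgeR and 1.95e-05 in DESeq2). In HP1a cells it was 91.5, 107 and 104 CPM in KO against 47.5, 60.8 and 21.8 CPM in WT libraries (1.21 ± 0.34, adjusted p = 0.225 in edgeR and 0.0194 in DESeq2). Neither line overlapped between genotypes. The difference between the 2 KO effects was 2.33 ± 0.44 on the log2 scale and was called (adjusted p = 0.0249, edgeR), 1 of 7 members where 2.72% of all genes were called. The call was lost with the left-out library of HP1g KO Tconv with Treg included (2.21, adjusted p = 0.111). It was also lost on leaving out any 1 of 6 of the 11 libraries, with a log2 difference of 2.11 to 2.41 and an adjusted p of 0.0505 to 0.163. These were replicate 1 of HP1a WT, replicates 1 and 3 of HP1a KO, replicates 2 and 3 of HP1g WT and replicate 1 of HP1g KO Tconv with Treg. Without replicate 3 of HP1a WT Tconv with Treg, the library that stood apart, the difference was 2.03 (adjusted p = 0.00738). As the lines came from separate crosses, line, experiment and any difference in the Treg ratio cannot be told apart here.

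Gata3 and Il1rl1 had differences of the same signs with Treg, and edgeR called neither. Gata3 in HP1a KO cells (214 to 246 CPM) lay above WT (124 to 185 CPM, log2 fold change 0.62 ± 0.19, adjusted p = 0.247), and in HP1g KO cells (87.8 and 189 CPM) below WT (201 to 299 CPM, -0.78 ± 0.36, adjusted p = 0.477). The difference of these effects was 1.41 ± 0.41 (adjusted p = 0.0953 in edgeR, 0.0143 in DESeq2, which called 7.51% of all genes). For Il1rl1 it was 2.27 ± 0.87 (adjusted p = 0.198), with 0.57 ± 0.52 in the HP1a line, where the genotypes overlapped, and -1.69 ± 0.63 in the HP1g line, which DESeq2 called (adjusted p = 0.0409). In HP1g KO cells the Il1rl1 value depended on the left-out library, with which its log2 fold change was -0.20 (adjusted p = 0.943). With Treg, 2 of the 5 members tested did not overlap between KO and WT in the HP1a line (21.5% of all genes) and 3 of 7 in the HP1g line (29.2%).

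With Treg, a single library led Il4 and Il5 in HP1a KO and in HP1g WT Tconv, and Il13 in HP1a KO only. In HP1a KO Tconv with Treg, replicate 2 had 559 counts of Il4, 39 of Il5 and 54 of Il13, while replicates 1 and 3 had 41 and 77 counts of Il4 and 0 of both Il5 and Il13. The markers of group 2 innate lymphoid cells summed to 8.5 CPM in the same library, the highest of the grafted libraries, and to 1.33 and 1.6 CPM in replicates 1 and 3, and their part was not tested. In HP1g WT Tconv with Treg, replicate 3 had 936 counts of Il4 and 42 of Il5, against 151 and 101 counts of Il4 and 1 and 4 of Il5 in the other libraries. For Il13, with 0, 12 and 14 counts, replicate 2 was as high as replicate 3. Il1rl1 was highest in replicate 2 in both groups (16.8 and 51.6 CPM), which in the HP1g group was not the library highest in Il4 and Il5. Il4 was not called between KO and WT with Treg in the HP1a (log2 fold change -0.88 ± 0.96, adjusted p = 0.754) or the HP1g line (-0.39 ± 0.91, adjusted p = 0.924).

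The summed level of 10 myeloid markers (Lyz2 and S100a8 among them) differed between the compared groups as well. It was 238 to 619 CPM in HP1a KO and 23.9 to 67.5 CPM in HP1a WT Tconv with Treg. In HP1g Tconv with Treg it was 92.2 and 311 CPM in KO and 116 to 160 CPM in WT libraries. Summed erythroid markers were 73.9 to 443 CPM in HP1a KO and 1.61 to 29.1 CPM in HP1a WT Tconv with Treg. The 10 Treg markers summed to 512 to 725 CPM in HP1a KO and 1010 to 1240 CPM in HP1a WT Tconv with Treg, and to 795 and 1470 CPM in HP1g KO and 593 to 717 CPM in HP1g WT. In the HP1a line the KO against WT comparison called 1 of them lower and in the HP1g line it called none, and 3 were called lower in the difference of the KO effects between lines. The part of these cells in the levels of Il4ra, which myeloid cells also express, was not tested.

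The interaction of genotype and Treg was called for none of the members in either line (0 of 6 tested in the HP1a line, where 0.139% of all genes were called, and 0 of 7 in the HP1g line, where 0% were). No member had an unadjusted p under 0.05 in either, where 1675 of 17205 and 667 of 17833 genes tested had such a p. DESeq2 called 0 members and 1.85% and 0.0539% of all genes. In the HP1a line the interaction was 0.73 ± 0.45 for Il4ra (adjusted p = 0.657) and 0.49 ± 0.36 for Gata3 (0.723), and in the HP1g line -0.31 ± 0.46 and 0.28 ± 0.46 (adjusted p = 1 for both). In naive cells none of the 3 expressed members was called between KO and WT. Gata3 had a log2 fold change of 0.15 ± 0.10 in the HP1a and 0.03 ± 0.13 in the HP1g line, and Il4ra of 0.10 ± 0.18 and 0.60 ± 0.28. Il4ra was 533, 753 and 646 CPM in HP1g KO and 524, 268 and 486 CPM in HP1g WT naive cells, without overlap (adjusted p = 0.63), where 17.4% of all genes did not overlap. The 268 CPM came from WT replicate 2, the library with the lowest TMM factor, where Stat6 was 263 CPM against 403 and 410 CPM in replicates 1 and 3. Stat6 did not overlap in either line (0.10 ± 0.07 and 0.35 ± 0.21, adjusted p = 1 and 0.63), where 6.19% of all genes did not overlap in the HP1a line.

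Ordered by mean level over the 12 groups, Gata3 was lowest in the 4 naive groups (95.7 ± 10 to 118 ± 4.31 CPM) and highest in HP1g WT, HP1a WT and HP1a KO Tconv (429 ± 141, 458 ± 137 and 506 ± 164 CPM, SD, n = 3), and neighbours within each of these sets did not differ beyond their spread. HP1g KO Tconv (203 ± 27.1 CPM) stood with the groups with Treg (138 ± 71.7 to 240 ± 51.6 CPM). For Il4ra the order was the reverse at the ends, with the 4 naive groups highest (426 ± 138 to 644 ± 110 CPM) and HP1a WT Tconv with Treg lowest (43.4 ± 19.8 CPM). For Il1rl1 the naive groups were at 0.0418 ± 0.0513 to 0.0874 ± 0.041 CPM, HP1a WT, HP1g KO and HP1a KO Tconv with Treg at 7.2 ± 3.58, 10.4 ± 8.07 and 10.8 ± 5.58 CPM, and HP1g WT Tconv highest at 96.9 ± 49.8 CPM. The means of Il4 in the 8 grafted groups, from 4.71 ± 0.396 CPM in HP1g KO Tconv to 15.9 ± 5.79 CPM in HP1g WT Tconv, overlapped within their spread between neighbours throughout.

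Across the 12 group means of log2(CPM + 0.5), Il4 followed Il1rl1 (Pearson r = 0.946) and Gata3 followed Il1rl1 (0.893), while Il4ra followed Stat6 (0.922) and ran against Il4 (-0.75). These correlations describe 12 points that share libraries and the step from naive to grafted cells. In a ranking of 9318 expressed genes, those most like Il1rl1 were Socs2, a feedback inhibitor of cytokine signalling (0.994), Plac8 (0.994) and Rhoc, a small GTPase (0.992). Those most like Gata3 were Cysltr1, a receptor of cysteinyl leukotrienes (0.979), Hrh4, a receptor of histamine (0.977), and Cdh1, which encodes E-cadherin (0.974). For Il4 they were Ccl1, the ligand of the chemokine receptor CCR8 (0.985), the cytokine gene Lif (0.984) and the phosphatase gene Ptpn13 (0.983). Those of Il4ra were Impdh1, an enzyme of guanine nucleotide synthesis (0.988), Txnip, which binds thioredoxin (0.987), and Sgpp1, a phosphatase of sphingosine 1-phosphate (0.985). Those of Stat6 were Rasal3 (0.99), the signalling gene Vav1 (0.984) and Washc2 (0.978).

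The wider Th2 pathway was followed through 44 other genes, listed by role as receptors and signalling (11), factors that act with Gata3 or on the Il4 gene (11), factors that oppose the programme (7), genes beside the cytokine cluster (5) and other products of Th2 cells (10). From naive cells to WT Tconv, 16 of the 38 genes tested were higher and 2 lower in the HP1a line, and 18 of 40 were higher and 3 lower in the HP1g line, against 23.1% and 23.5% of all genes called in either direction, with medians of 0.83 and 0.95 over the genes tested, where the medians over all genes were -0.04 and -0.03. Csf2, with 0.222, 0 and 0.0149 CPM in naive HP1a WT libraries, passed the filter on low counts only through Tconv, where it was high. Being tested nearly fixed the direction of such genes, so these counts and medians are no support when set against all genes. The 3 highest log2 fold changes were those of Pparg, a nuclear receptor of Th2 cells (11.12 ± 0.78 and 9.43 ± 0.85, adjusted p = 8.07e-05 and 0.000143), of Tbx21, the gene of T-bet, the master regulator of Th1 cells (10.23 ± 0.38 and 10.09 ± 0.35), and of Csf2, which encodes GM-CSF (8.92 ± 0.86 and 8.47 ± 0.84). The lowest were those of Sox4 (-6.03 ± 0.43 and -6.41 ± 0.76) and Tcf7, a factor of naive T cells that also acts on Gata3 (-1.59 ± 0.11 and -1.69 ± 0.21), and in the HP1g line Bhlhe41 (-3.27 ± 0.99, adjusted p = 0.0387). The rise of Gata3 thus stood beside a rise of Tbx21, the factor that opposes it.

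With Treg, 6 pathway genes rose and 4 fell of 41 tested in HP1a WT cells, where 5.96% of all genes were called, with a median log2 fold change of -0.08 over those tested. Il10, the gene of an inhibitory cytokine made by Th2 cells and other subsets, was 53.6, 45.1 and 124 CPM with Treg against 2.86, 2.4 and 0.161 CPM without (log2 fold change 5.38 ± 0.87, adjusted p = 0.013). Maf, which activates Il4 and Il10, was 283, 232 and 563 against 104, 125 and 77.9 CPM (1.83 ± 0.36, adjusted p = 0.0261). Batf, an AP-1 factor of helper T cells, was 224, 197 and 218 against 87, 104 and 91.6 CPM (1.20 ± 0.14, adjusted p = 0.00445). None of these 3 genes overlapped between the groups.

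Sox4 and Zbtb32, both of which hold back Th2 cytokines, rose as well. Sox4 was 10.5, 28.1 and 10.9 against 0.381, 0.822 and 0.564 CPM (log2 fold change 4.80 ± 0.55, adjusted p = 0.00369) and Zbtb32 30.2, 36.9 and 12.9 against 2.37, 2.82 and 1.15 CPM (3.66 ± 0.49, adjusted p = 0.00669). Il13ra1, a receptor chain for interleukin 13, was at 0 in the 3 libraries without Treg and at 2.72, 2.07 and 0.519 CPM with Treg (adjusted p = 0.0183). It passed the filter on low counts only through the libraries with Treg, where it was high. Being tested nearly fixed the direction of such a gene, so the count of genes that rose is no support when set against all genes. The 4 that fell were Tbx21, Riox2, Csf2 and Epas1. Tbx21 was 92.4, 65.3 and 50.8 against 230, 197 and 262 CPM (-1.71 ± 0.24, adjusted p = 0.0076), and Riox2, which represses Il4, had a log2 fold change of -1.26 ± 0.16 (adjusted p = 0.00514). Csf2 was 8.12, 6.73 and 6.8 against 37.4, 53.5 and 20.3 CPM (-2.34 ± 0.35, adjusted p = 0.00949). Epas1, which encodes the hypoxia factor HIF-2α, was 1.66, 0.719 and 2.26 against 18.8, 25 and 26.9 CPM (-3.91 ± 0.44, adjusted p = 0.00363). Gata3 and Tbx21 thus both fell, and Maf, Batf and Il10 rose, in the same comparison of bulk libraries.

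In HP1a KO cells with Treg, Zbtb32 rose (18.1, 11.8 and 17.2 against 1.19, 2.51 and 2.96 CPM, log2 fold change 2.83 ± 0.36, adjusted p = 0.0288). Epas1 fell (4.3, 3.38 and 3.74 against 17.5, 27.5 and 34.8 CPM, -2.79 ± 0.27, adjusted p = 0.0137). The other 38 of the 40 tested were not called, where 0.44% of all genes were called. In the HP1g line none of the 40 genes tested was called with Treg in either genotype (0.0126% of all genes in WT and 0% in KO). None of the 34 to 40 tested was called in any of the 6 comparisons of KO with WT (0% to 0.123% of all genes). With shares this low, 0 calls say little about the pathway. The Treg effect differed between HP1a WT and HP1g WT cells for Riox2 (-1.23 ± 0.25, adjusted p = 0.0336) and Il13ra1 (adjusted p = 0.0376), for which no log2 value is given because it was at 0 in each HP1a WT Tconv library. Here 41 pathway genes were tested, and 1.56% of all genes were called.

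**Figure D4:**
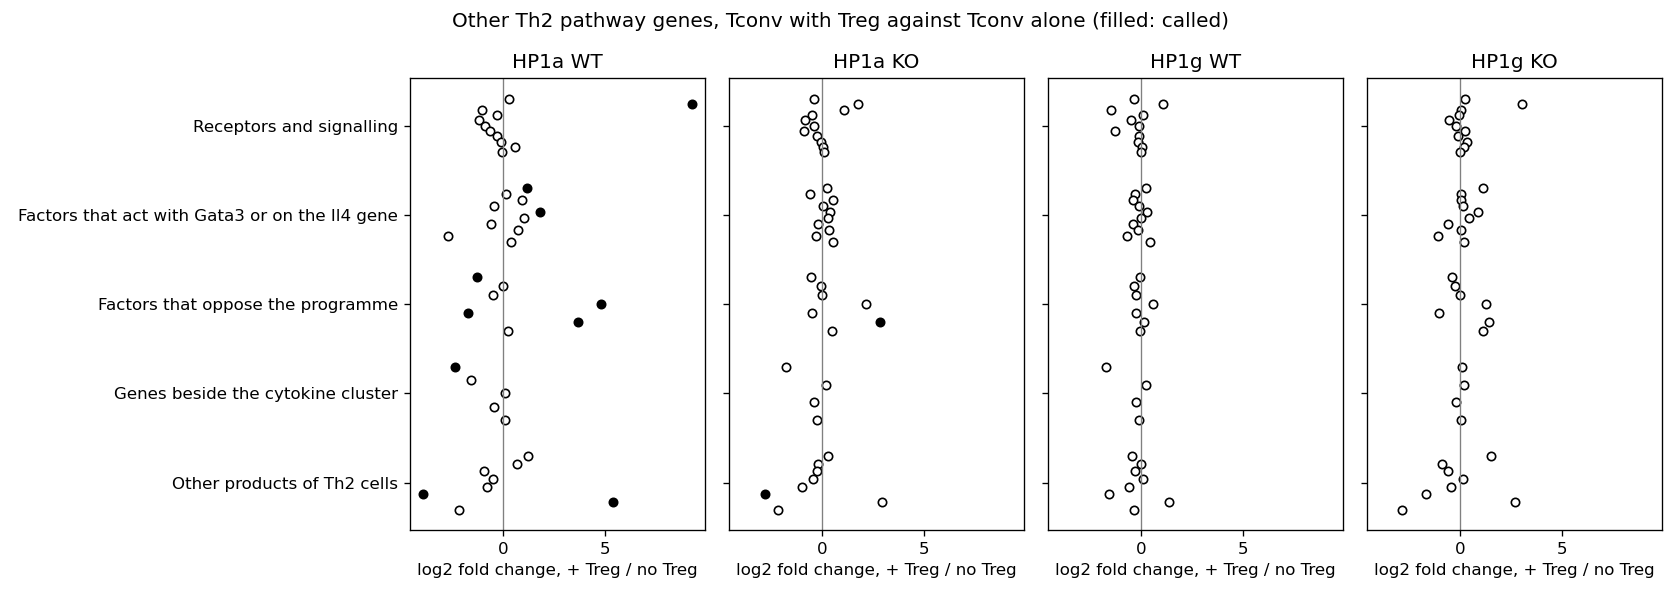
Log2 fold change of the other Th2 pathway genes, Tconv with Treg against Tconv alone, by role and with a common scale for the 4 sets of cells, with filled points for genes called by edgeR. HP1a WT cells held 10 filled points, HP1a KO cells 2 and the HP1g cells none. Of the 10, Il13ra1 passed the filter on low counts only through libraries with Treg.

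The KO effect in Tconv with Treg differed between the 2 lines for 6 of the 42 pathway genes tested, 1 higher and 5 lower in the HP1a line, where 2.72% of all genes were called. Epas1 had a difference of 3.02 ± 0.67 (adjusted p = 0.0393), as Il4ra had. The opposite sign was found for Il10 (-7.50 ± 1.47, adjusted p = 0.0278), Zbtb32 (-3.27 ± 0.53, adjusted p = 0.016), Batf (-2.35 ± 0.39, adjusted p = 0.0162), Maf (-2.25 ± 0.49, adjusted p = 0.038) and Gfi1, a repressor that favours the growth of Th2 cells (-1.20 ± 0.26, adjusted p = 0.0383). Of Il10, HP1a KO cells held 3.23, 5.17 and 12.3 CPM against 53.6, 45.1 and 124 CPM in WT, and HP1g KO cells 221 and 20.9 CPM against 15.9, 4.64 and 1.45 CPM in WT.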

How the data were processed

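Per the labels and the methods of the study, poly-A RNA was amplified with SMART-Seq v4 PLUS, which does not keep the strand, and sequenced as paired reads. The authors removed adapters with Trim Galore, mapped the reads to GRCm39 with STAR and quantified genes with Salmon. The deposited values are estimated counts per gene, neither scaled nor filtered, of which 82.9% were whole numbers. They were rounded here. CPM used TMM factors over 35 libraries.

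Groups were compared by the quasi-likelihood test of edgeR 4.0.16 (R 4.3.3) with TMM, filterByExpr and only the groups compared, with Benjamini-Hochberg adjustment over all genes tested, and the thresholds of the study (0.05, absolute log2 fold change above 1). The authors used DESeq2, run here as an alternative (1.42.0). SE is the log2 fold change divided by the square root of its F statistic. The procedure was tested on simulated data. Replicate numbers were taken as pairs where same-numbered libraries deviated together (r above 0.1 in all of at least 3 pairs), which held for HP1a naive KO against WT (0.441 to 0.794) and the Treg effect in HP1g WT cells (0.132 to 0.432). The members, the other lists, the markers and the rules were chosen with earlier results of these data known. All members are named; of the pathway list all called genes are named where they are 6 or fewer in a comparison, and otherwise the 3 highest and 3 lowest. The other 4 called in the Treg effect in HP1a WT cells (Maf, Batf, Zbtb32, Riox2) were named after their values were seen. Genes like a member leave out receptor segments and predicted genes. Positions come from GENCODE M39 on GRCm39. Intervals cover counting error only.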

Additional observations from a re-analysis of the deposited data

Results flagged for a closer look

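The difference of the KO effect on Il4ra between the HP1a and HP1g lines in Tconv with Treg is listed because the test of the difference itself was called. Its value was 2.326 on the log2 scale (HP1a minus HP1g, adjusted p = 0.0249, edgeR), with KO above WT in the HP1a and below WT in the HP1g line and no overlap of genotypes in either. Line, experiment and any difference in the Treg ratio cannot be told apart in it. No group held the 4 libraries that the search for single outlying libraries needs.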

How the results depend on the processing

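In no alternative did a called member change its sign, while 56 values called in neither fit did. The counts of members called in Tconv against naive cells (4 and 5), in the interactions (0 and 0), for the Treg effect in HP1g WT and HP1g KO cells (0 and 0) and its difference between lines (0), in naive KO against WT (0 and 0) and in HP1a Tconv KO against WT (0) were the same or within 1.5 times under every alternative run. DESeq2 raised the count to 1 in HP1a Tconv with Treg KO against WT, to 2 in HP1g Tconv and 2 in HP1g Tconv with Treg, to 3 for the Treg effect in HP1a KO cells, and to 2 for the difference of KO effects between lines (Gata3 besides Il4ra). Without a filter on low counts 1 member was called in HP1g Tconv (Il4) and 1 in HP1g Tconv with Treg (Il4ra). With all libraries of the line in 1 fit the counts were 1 in HP1a Tconv with Treg, 2 for the Treg effect in HP1a KO cells and 2 for the difference between lines. With the left-out library included the last count was 0. Leaving out 1 library at a time gave 1 to 3 calls for the Treg effect in HP1a WT cells, 0 to 2 in HP1a KO cells, 0 to 1 for HP1g Tconv with Treg KO against WT and 0 to 2 for the difference between lines. The last of these was chosen after seeing the data, and leaving out libraries was not run for the difference of Treg effects between lines. In edgeR an arm left with 1 library is assumed to vary like the other group.

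With a replicate block, where the numbers pair the libraries, no call on a member changed. Elsewhere the correlations did not pass the criterion for pairs and the labels give only a shared number, although replicate 1 of each of the 4 grafted HP1g groups shared high erythroid markers (2230 to 4180 CPM). There the block gave 3 calls in HP1g Tconv KO against WT (Gata3, Il4 and Il1rl1, adjusted p = 0.0329, 0.0333 and 0.00757; correlations of same-numbered libraries 0.0962 to 0.511), 1 for the Treg effect in HP1a KO cells (Il4ra) and 2 for the difference between lines.

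The cause of these moves was not tested. Depth limits Il5 and Il13, which were at or under 92 counts in every library.

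The log2 fold changes that changed sign, none of them called, were as follows. Gata3 in HP1g naive KO against WT was -0.0026 with DESeq2, -0.027 without a filter and -0.0066 with all libraries of the line in 1 fit. With the replicate block, Il4 was 0.98, Il13 was 0.44 in HP1g Tconv with Treg KO against WT, Il5 was 0.49 in the Treg effect of HP1g KO and Stat6 was -0.032, Il1rl1 was -0.21 in the interaction in HP1g. With the left-out library included, Il5 was -0.16, Stat6 was 0.24 in HP1g Tconv with Treg KO against WT, Il4 was -0.29, Stat6 was 0.42, Il1rl1 was 0.17 in the Treg effect of HP1g KO and Il4 was 0.055 in the difference of KO effects between lines. With 1 library left out at a time, the values spanned 0 as follows. In HP1a naive KO against WT, Il4ra lay between -0.037 and 0.30. In HP1a Tconv KO against WT, Gata3 lay between -0.11 and 0.41, Il4 between -0.022 and 1.19, Stat6 between -0.051 and 0.083 and Il1rl1 between -0.23 and 0.33. In HP1g naive KO against WT, Gata3 lay between -0.026 and 0.064. In HP1g Tconv with Treg KO against WT, Il4 lay between -0.97 and 1.04, Il5 between -0.50 and 2.61 and Stat6 between -0.42 and 0.0017. In the Treg effect of HP1a WT, Il4 lay between -0.14 and 1.05. In the Treg effect of HP1a KO, Il5 lay between -8.53 and 0.11. In the Treg effect of HP1g WT, Stat6 lay between -0.12 and 0.033. In the Treg effect of HP1g KO, Il4 lay between -0.32 and 0.65, Il5 between -0.999 and 0.32 and Stat6 between -0.25 and 0.17. In the interaction in HP1a, Il5 lay between -2.08 and 6.46 and Il1rl1 between -0.0085 and 0.80. In the interaction in HP1g, Gata3 lay between -0.38 and 0.72, Stat6 between -0.19 and 0.19 and Il1rl1 between -1.01 and 0.75. In the difference of KO effects between lines, Il4 lay between -2.73 and 0.11, Il5 between -0.26 and 7.44 and Il13 between -1.46 and 8.10.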
